A study of Arabidopsis thaliana with 16 samples.

Results

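A set of 116 ATH1 probe sets gave lower values in the glu1-2 mutant than in wild type Col-0 in leaves and also in roots, out of 22266 Arabidopsis probe sets measured. They were chosen by their values: on the log2 scale the mean of glu1-2 had to lie at least 0.3 under the mean of Col-0 in each organ, with all 4 mutant arrays below all 4 wild type arrays in each organ. The same rule was met by 120 probe sets, of which 4 were then dropped: BHLH101, WRKY22, ccb452 and a probe set that the annotation pairs with no gene. The genotype differences of the members are therefore descriptions, and no test of them is given. The contrast that could be tested was that between wild type leaf and wild type root, which the rule did not use, although it shares the wild type arrays with it.

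The 16 arrays came from rosette leaves and roots of plantlets kept in vitro for 18 days on medium with Murashige and Skoog salts (which hold ammonium nitrate) and 3% sucrose, under 16 h of light a day at 75 µmol per square metre and second, and harvested soon after the light came on. Col-0 is the wild type, and glu1-2 is 1 homozygous T-DNA insertion line in the same accession, disrupted in Fd-GOGAT1 (GLU1, AT5G04140). Its plantlets were described as moderately chlorotic and smaller, and each organ and genotype was represented by 4 arrays. With 1 insertion line, loss of GLU1 and any other change carried by that line cannot be told apart.

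Fd-GOGAT1 is the ferredoxin-dependent glutamate synthase of plastids. It makes glutamate from glutamine and 2-oxoglutarate, closes the main cycle of ammonium assimilation and, in illuminated leaves, takes back the ammonium that photorespiration sets free. Roots rely more on other glutamate synthases.

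No probe set was named for GLU1 in the annotation used here, so the level of the disrupted gene was not read directly. The unnamed dropped probe set had the largest decrease in leaves of all 22266, from intensities of 1245 to 2472 in Col-0 leaves to between 29 and 39 in glu1-2 leaves. It is the likely probe set of GLU1, but the annotation does not settle this. BHLH101, also dropped, is the gene next to GLU1 on the chromosome. Of the organ markers, RCA (Rubisco activase, a leaf gene) averaged 11969 in Col-0 leaves and 955.5 in Col-0 roots, and EXPA7 (a root hair expansin) averaged 33.8 and 215.5. Both followed the organ labels, and no other gene of the marker lists had a named probe set. In roots RCA was higher in glu1-2 than in Col-0 by 0.64 ± 0.08 (SE; limma, q = 0.00041), and whether this leaf transcript has a part in the root values of the members was not tested. In whole organs, fewer cells of a type and less RNA per cell cannot be told apart.

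Probe sets with lower values in both organs were a small share of those lower in leaves and a larger share of those lower in roots. The leaf side of the rule alone was met by 2947 probe sets (13.2% of all) and the root side alone by 585 (2.63%), and both together by 120 (0.539%), which is 4.07% of the leaf set and 20.5% of the root set. These shares lay above the 2.63% and 13.2% of all probe sets that met the root and the leaf side, and the excess was not tested. The mirror image, values higher in glu1-2 in both organs without overlap, was met by 73 probe sets (0.328%). A further 88 probe sets reached the 0.3 limit in both organs but had overlapping arrays in at least 1 organ, among them AT1G66100 with -3.806 in leaves and -0.347 in roots. At the edge of the rule, an unnamed member lay at -0.3 in leaves and -0.399 in roots, while AT5G02890, just outside, had -0.688 in leaves and -0.298 in roots.

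**Figure D1:**
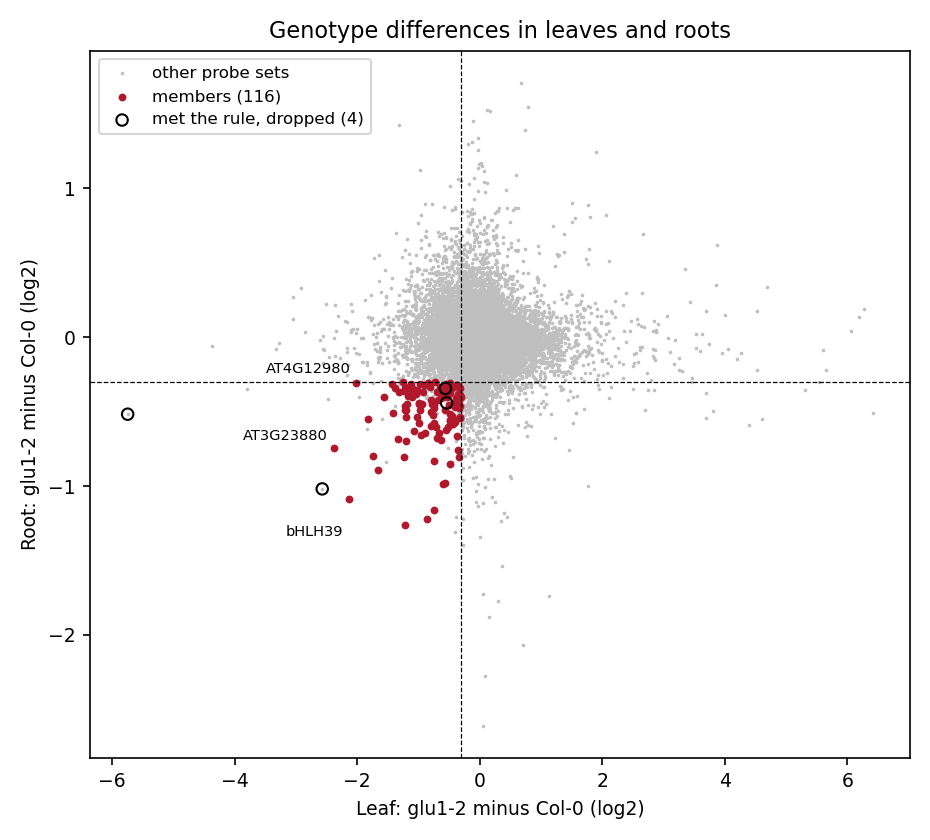
Difference between glu1-2 and Col-0 in leaves (horizontal axis, log2) and in roots (vertical axis, log2) for all 22266 probe sets, each from 4 arrays a group. The 116 members (red) fill the corner below the dashed limits of -0.3 and spread further along the leaf axis (to -2.39) than along the root axis (to -1.26), and open circles mark the 4 dropped probe sets.

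The median difference of the members was -0.70 in leaves, which is 61.7% of the wild type intensity, and -0.46 in roots, which is 72.9% of it. Over all probe sets the medians were -0.02 and 0.01. The leaf differences ran from -0.30 to -2.39 and the root differences from -0.30 to -1.26. In leaves 32 members were lower by 1 log2 unit or more and in roots 4 were, and 2 were in both organs: bHLH39 and an unnamed probe set with -1.22 in leaves and -1.26 in roots, where its glu1-2 mean was 21.2. The leaf difference was the larger one in 80 members and the root difference in 36, and the median of the leaf difference minus the root difference was -0.23. Leaf differences were larger in these arrays as a whole, as the shares of probe sets meeting each side of the rule show.

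Names were available for 59 of the 116 members. The platform annotation names 55 through a single gene and gives several genes for 1. Some of the study's supplementary gene lists, but not its full gene list, gave names to a further 4, by the leaf and the root difference listed for the gene. For each, only 1 probe set matched among those that the annotation does not give to another single gene. These 4 are bHLH39 (AT3G56980), WRKY70 (AT3G56400), ABCG21 (AT3G25620) and MYR1 (AT5G18240), and the names rest on the same differences that are described here. ABCG21 remained a member because the annotation from which names were dropped gives its probe set no symbol. The 57 members without a single name had medians of -0.65 in leaves and -0.40 in roots, close to the -0.75 and -0.50 of the named ones.

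The regulators of transcription among the members were led by bHLH39, one of the group Ib bHLH factors that switch on iron uptake when iron is short. In leaves its probe set read 104, 94, 83 and 124 on the Col-0 arrays and 28, 24, 20 and 20 on the glu1-2 arrays. In roots it read 232, 202, 243 and 215 in Col-0 and 99, 100, 121 and 100 in glu1-2. The lowest Col-0 array lay above the highest glu1-2 array in both organs, as the rule required. The differences were -2.14 ± 0.14 in leaves and -1.09 ± 0.09 in roots (SE of the fit, 4 arrays a group, as in all differences below). The glu1-2 leaf arrays lay under an intensity of 32, where signal is poorly separated from background, so the leaf difference is a lower limit.

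WRKY70, a transcription factor that stands between salicylate and jasmonate defence signalling, read 445, 414, 555 and 554 in Col-0 leaves and 175, 113, 177 and 128 in glu1-2 leaves. In roots it read 70, 91, 91 and 114 in Col-0 and 58, 54, 45 and 51 in glu1-2. The leaf groups lay far apart and the root groups closer, at -1.75 ± 0.16 and -0.80 ± 0.13. HIS1-3, a linker histone variant known to be induced by drought, read 561, 560, 540 and 419 in Col-0 leaves against 208, 178, 242 and 195 in glu1-2 leaves. In roots it read 637, 534, 538 and 609 against 419, 339, 320 and 365. Its wild type means were near each other, 520 in leaves and 579.5 in roots, and the difference was -1.34 ± 0.12 in leaves and -0.69 ± 0.09 in roots. MYR1, a MYB-related protein, was much less different, with -0.37 ± 0.08 in leaves and -0.46 ± 0.09 in roots.

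The proteins that mark or cut other proteins made up the largest role group, together with their helpers: 10 members, with leaf differences from -0.33 to -2.39 and root differences from -0.34 to -0.80. Roles were given to 40 members and grouped after the values were seen. The share of such genes over all probe sets was not counted, so nothing is read from the size of a role group. The F-box protein AT3G23880, of the family that gives ubiquitin ligases their targets, had the largest leaf difference of all members, -2.39 ± 0.12. Its Col-0 leaf arrays read 225, 170, 240 and 232 and its glu1-2 leaf arrays 35, 42, 44 and 44, against 72, 67, 67 and 67 and then 43, 45, 42 and 34 in roots. The glu1-2 leaves thus came down to the level of glu1-2 roots, from a wild type level that was 3.15-fold higher in leaves than in roots.

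The subtilisin-like protease AT4G21650 read 410, 547, 331 and 421 in Col-0 leaves and 179, 151, 159 and 232 in glu1-2 leaves. In roots it was dim, at 62, 36, 45 and 45 against 26, 24, 28 and 28. The differences were -1.24 ± 0.16 and -0.80 ± 0.13, the latter a lower limit because the mutant roots lay under 32. The RING ubiquitin ligase ATL8 had -0.80 ± 0.09 in leaves and -0.60 ± 0.06 in roots, and its Col-0 arrays covered nearly the same range in leaves (165 to 193) and roots (165 to 178). Of the other RING ligases, AT1G26800 had -0.94 in leaves and -0.45 in roots and AT2G35910 had -0.42 and -0.44. A pair of TRAF-like proteins, AT4G01390 and AT4G00780, had root differences of -0.76 and -0.53 beside leaf differences of -0.35 and -0.45.

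Among transporters, both members of the NRT1/PTR family of nitrate and peptide carriers showed the leaf difference as the larger one. AT2G40460 varied little between replicates, at 252, 238, 251 and 249 in Col-0 leaves and 112, 101, 116 and 109 in glu1-2 leaves. In roots the groups were nearer, at 288, 254, 289 and 247 against 226, 204, 193 and 198, so that the differences were -1.18 ± 0.08 and -0.39 ± 0.08. AT3G53960 had -0.99 ± 0.10 and -0.45 ± 0.12, and ABCG21, of the ATP-driven ABC transporters, -1.07 ± 0.11 and -0.63 ± 0.09.

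Proteins that bind, cut or esterify lipids and acyl groups formed a group of 8, of which 7 were higher in Col-0 roots than in Col-0 leaves (limma, q under 0.01), beside 38.2% of all probe sets and 48.4% of those with Col-0 means at 32 or more in both organs. The group was put together after the values were seen, and nothing is read from this count. The lipid transfer protein AT4G33550 read 3455, 3376, 2902 and 2904 in Col-0 roots and 2006, 2100, 1765 and 1904 in glu1-2 roots. In leaves it read 344, 418, 348 and 349 against 172, 178, 143 and 141. The difference was nonetheless larger in leaves, its minor organ (-1.21 ± 0.10), than in roots (-0.70 ± 0.08). AT2G45180, another protein of that family and the exception in the group for its wild type organ, likewise differed more in its minor organ, which was the root. It read 6002, 6670, 7088 and 7309 in Col-0 leaves and 5250, 4309, 4598 and 4190 in glu1-2 leaves. In roots it read 504, 502, 573 and 386 against 248, 248, 261 and 229. Its difference was -0.56 ± 0.10 in leaves and -0.98 ± 0.11 in roots. The GDSL lipase AT1G54790 also had the larger difference in roots, with 100, 113, 96 and 81 in Col-0 against 50, 48, 48 and 50 in glu1-2, and 49, 50, 52 and 52 against 33, 36, 38 and 28 in leaves. Its differences were -0.98 ± 0.09 and -0.60 ± 0.10. The 3 HXXXD acyltransferases, enzymes that join acyl groups to alcohols and amines, had leaf differences of -0.32 (AT5G42830), -0.43 (AT5G07080) and -0.50 (AT5G07870) and root differences of -0.54, -0.58 and -0.33.

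Cell wall and secreted proteins formed a group of the same size, with leaf differences from -0.41 to -0.99 and root differences from -0.36 to -0.85. The chitinase-family protein AT2G43610 read 2707, 2808, 2609 and 2870 in Col-0 roots and 1818, 1869, 2073 and 1641 in glu1-2 roots, and 66, 94, 75 and 71 against 38, 36, 37 and 42 in leaves. The root difference was -0.57 ± 0.08 and the leaf difference -0.99 ± 0.11, at a wild type level of 76.5 in leaves beside 2749 in roots. The pectin methylesterase-family genes AT1G05310 and AT3G10720, which act on pectin in the wall, had -0.49 and -0.59 in leaves and -0.85 and -0.39 in roots. The glycine-rich proteins AT4G30450 and AT4G30460 are next to each other on chromosome 4 and were the only pair of adjacent genes among the named members. AT4G30450 had -0.61 ± 0.09 in leaves and -0.36 ± 0.09 in roots. AT4G30460 had -0.41 ± 0.10 and -0.57 ± 0.25, and its large root error came from 1 Col-0 array at 517 beside others at 205 to 224. Without that array the root difference of AT4G30460 was -0.25 and that of its neighbour -0.29, so that neither would meet the rule. Class III peroxidase AT5G51890 and the DUF642 wall protein AT2G34510 had -0.80 and -0.79 in leaves and -0.42 and -0.50 in roots.

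**Figure D2:**
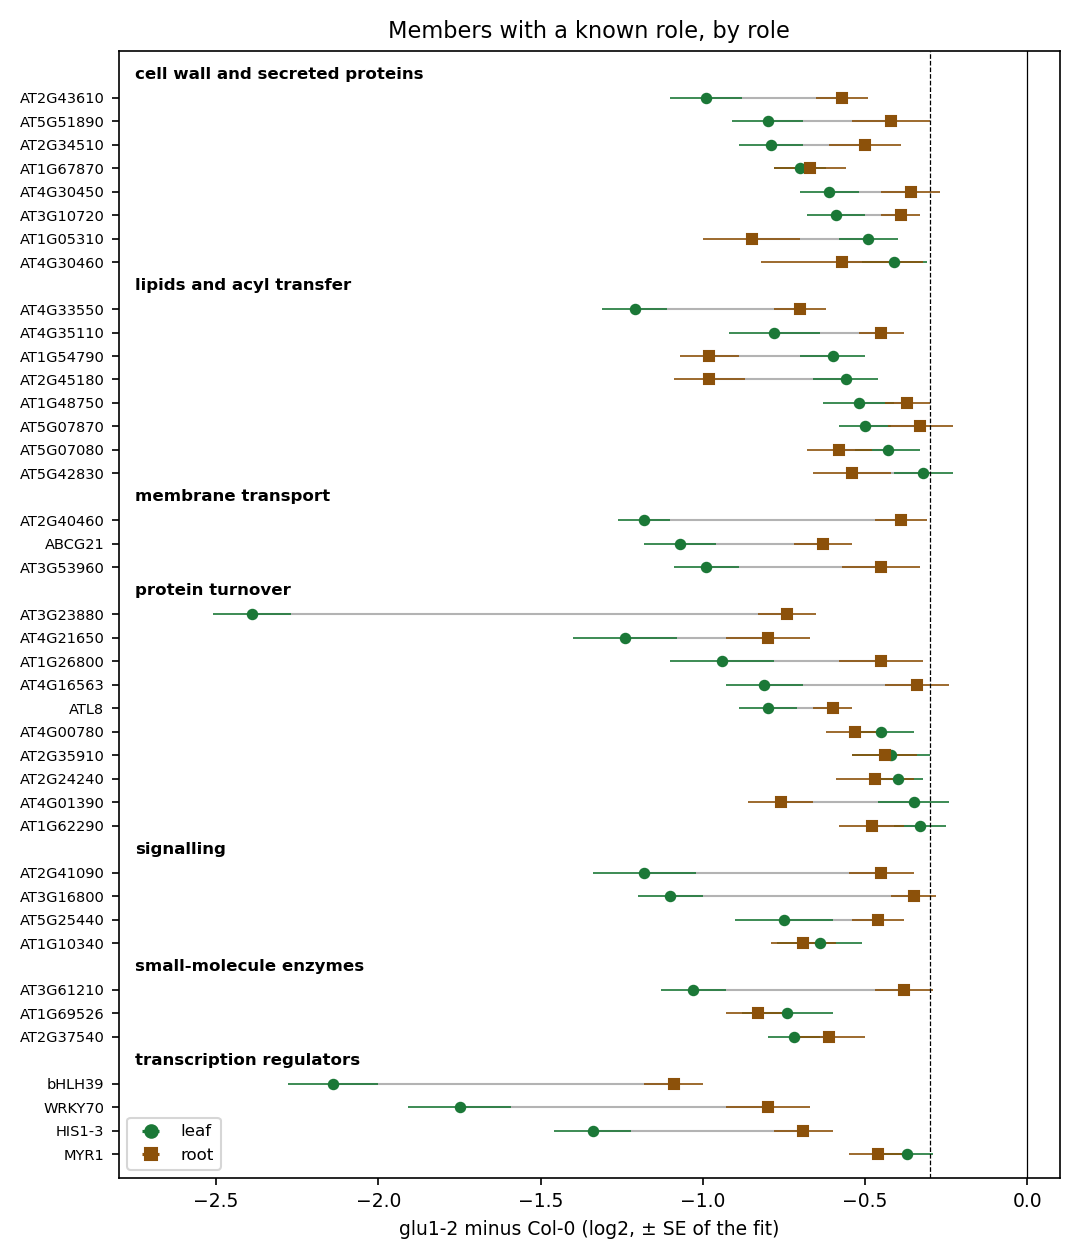
Difference between glu1-2 and Col-0 (horizontal axis, log2, bars show the SE of the fit, 4 arrays a group) in leaves (green circles) and roots (brown squares) for the 40 members with a role given here, grouped by role. Every point lies left of the dashed limit of -0.3, as the rule requires, and the leaf point lies furthest out for AT3G23880 (-2.39) while the root point is the lower one for genes such as AT4G01390, AT2G45180 and AT1G54790.

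Of the signalling proteins, the calmodulin-like AT2G41090 had the widest range of level between organs. It read 2317, 1754, 2651 and 2791 in Col-0 leaves and 1109, 803, 1279 and 991 in glu1-2 leaves, a difference of -1.18 ± 0.16. In roots it read 23, 31, 30 and 30 against 22, 22, 19 and 20, all under an intensity of 32, so the root value of -0.45 ± 0.10 is a difference near background and says little of the transcript there. The protein phosphatase 2C AT3G16800 had -1.10 ± 0.10 in leaves and -0.35 ± 0.07 in roots. The ankyrin repeat protein AT1G10340 had -0.64 and -0.69, and the protein kinase AT5G25440 had -0.75 and -0.46.

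Methyltransferase AT1G69526 was a root transcript, at 363, 342, 339 and 366 in Col-0 roots and 167, 242, 206 and 184 in glu1-2 roots, and at 40, 32, 45 and 33 against 24, 17, 26 and 23 in leaves. Its difference was -0.83 ± 0.10 in roots, and in leaves the -0.74 ± 0.14 is a lower limit in size, because the mutant lay under 32. A second methyltransferase, AT3G61210, was a leaf transcript and had -1.03 ± 0.10 in leaves and -0.38 ± 0.09 in roots. The short-chain dehydrogenase AT2G37540 had -0.72 and -0.61.

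Several of the largest differences belonged to proteins of other or unassigned roles. AT4G12980, of a family of auxin-responsive proteins with DOMON and cytochrome b561 domains, had the largest excess of the leaf over the root difference (-1.70 ± 0.13). It read 904, 688, 796 and 698 in Col-0 leaves and 172, 188, 192 and 210 in glu1-2 leaves, but 122, 103, 107 and 107 against 90, 84, 95 and 85 in roots, or -2.01 ± 0.10 and -0.31 ± 0.07. The root value is at the edge of the rule and was -0.26 without the Col-0 array at 122. AT5G45310 had 201, 182, 210 and 179 against 54, 46, 60 and 60 in leaves and 68, 64, 62 and 62 against 40, 41, 49 and 45 in roots (-1.82 ± 0.10 and -0.55 ± 0.08). AT5G52390, of the photoassimilate-responsive PAR1 family, was the weaker in leaves of both genotypes, yet differed more there, with 77, 98, 136 and 105 against 36, 34, 37 and 48. In roots it read 195, 185, 210 and 187 against 138, 143, 130 and 135, and the differences were -1.41 ± 0.16 and -0.51 ± 0.07. AT2G21185 had -1.21 and -0.54 and AT1G64370, an abundant transcript in all groups (971 on its lowest array), -0.95 and -0.66. AT1G30260 had -1.13 in leaves and -0.32 in roots.

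**Figure D3:**
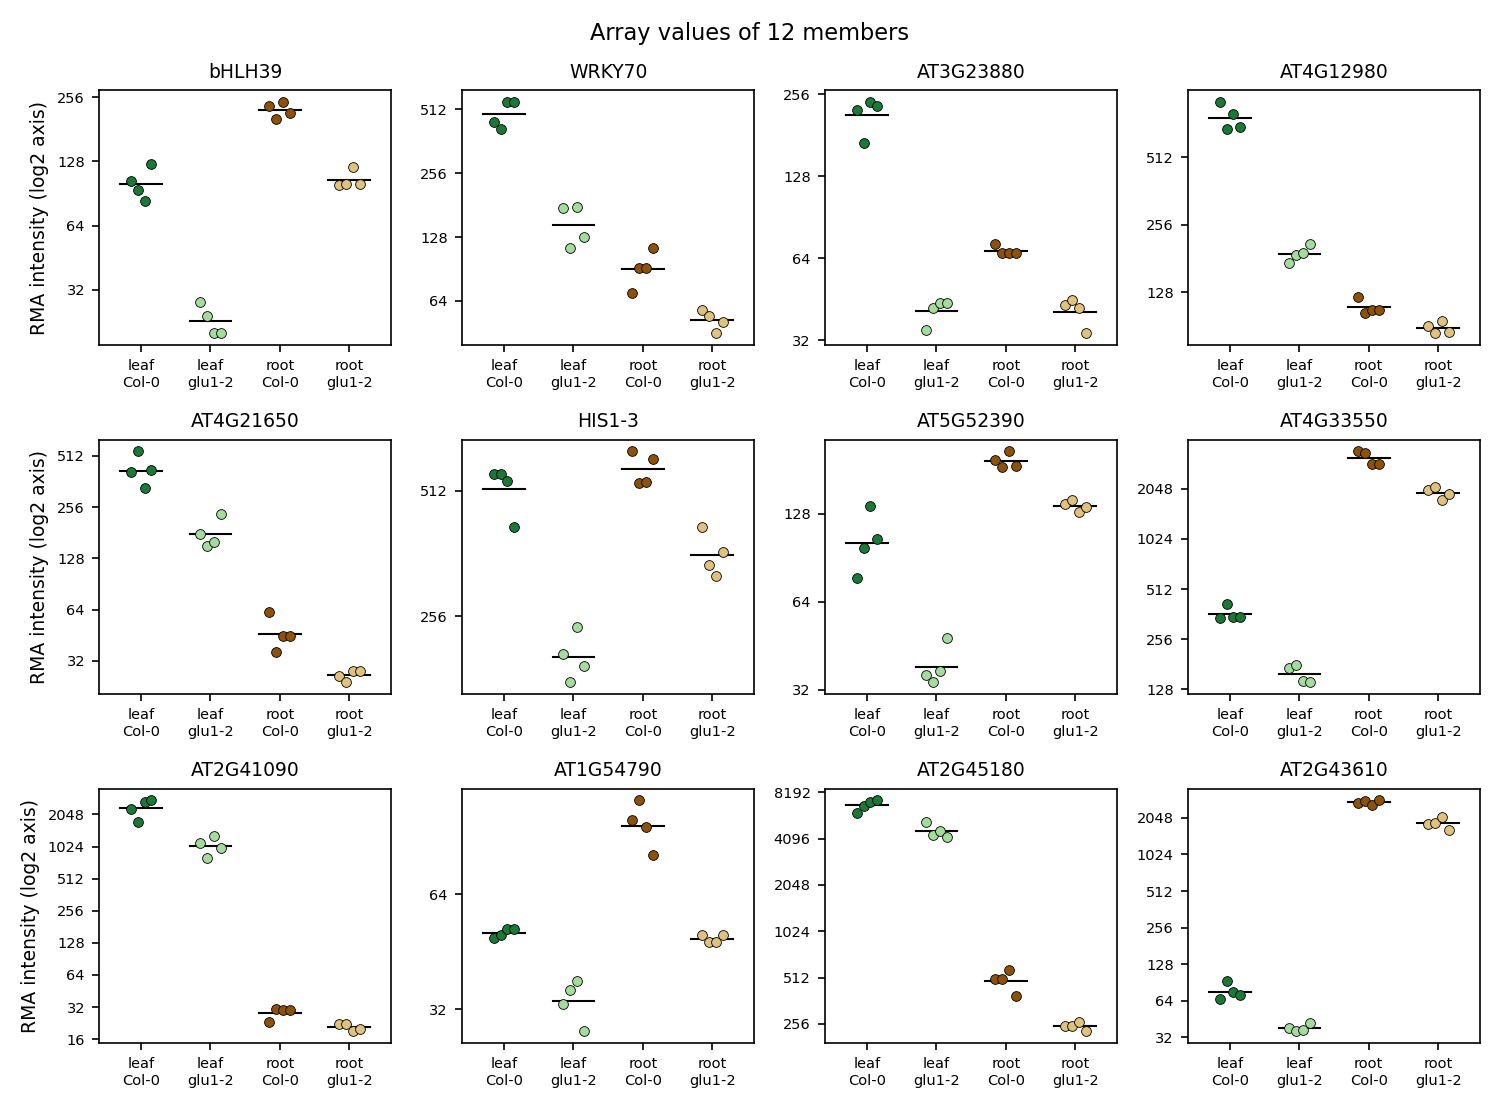
RMA intensity on each array (vertical axis, log2 scale, a different range in each panel) for 12 members in Col-0 and glu1-2 leaves (green) and roots (brown), with points for the 4 arrays of a group and a line at the mean of the log2 values. In each panel the glu1-2 points lie below the Col-0 points of the same organ, while the organ with the higher level changes from panel to panel: leaves for WRKY70 and AT2G41090, roots for AT4G33550 and AT2G43610.

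The contrast that the rule did not use asked in which wild type organ these transcripts are more abundant. In Col-0, 46 of the 116 members (39.7%) were higher in leaves and 57 (49.1%) were higher in roots (limma, Storey q under 0.01), and 13 (11.2%) passed in neither direction. Over all probe sets 36.9% were called higher in leaves, 38.2% higher in roots and 24.8% neither. Because most probe sets differed between the organs, this q reached down to unadjusted p-values of 0.047, and with Benjamini-Hochberg adjustment 43 members were higher in leaves and 55 in roots. When arrays were shifted to a common median, which moved the median difference of all probe sets from 0.03 to 0.17, 50 members were higher in leaves and 55 in roots, beside 49.7% and 33.1% of all probe sets. Members were found on both sides under each scaling. At the values as deposited a smaller share of them than of all probe sets was left uncalled. The same was true of the probe sets meeting either side of the rule alone, so this is not particular to the members.

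This spread differed from that of the sets with a lower value in 1 organ. Of the 2947 probe sets meeting the leaf side of the rule, 73.5% were higher in Col-0 leaves and 16.3% higher in Col-0 roots. Of the 585 meeting the root side, 14% were higher in Col-0 leaves and 77.9% higher in Col-0 roots. The members are included in both sets, and no test was made of the difference between these shares. Level differed as well, and its part in these shares was not tested: 99 of the members had all 4 group means at an intensity of 32 or more, and 4 (3.45%) had a Col-0 leaf mean under 32, compared with 30.8% of all probe sets. The median Col-0 intensity of the members was 266 in leaves and 261 in roots, beside 97.9 and 107 over all probe sets. Among the 14264 probe sets with Col-0 means at 32 or more in both organs, 31.5% were called higher in leaves and 48.4% higher in roots.

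**Figure D4:**
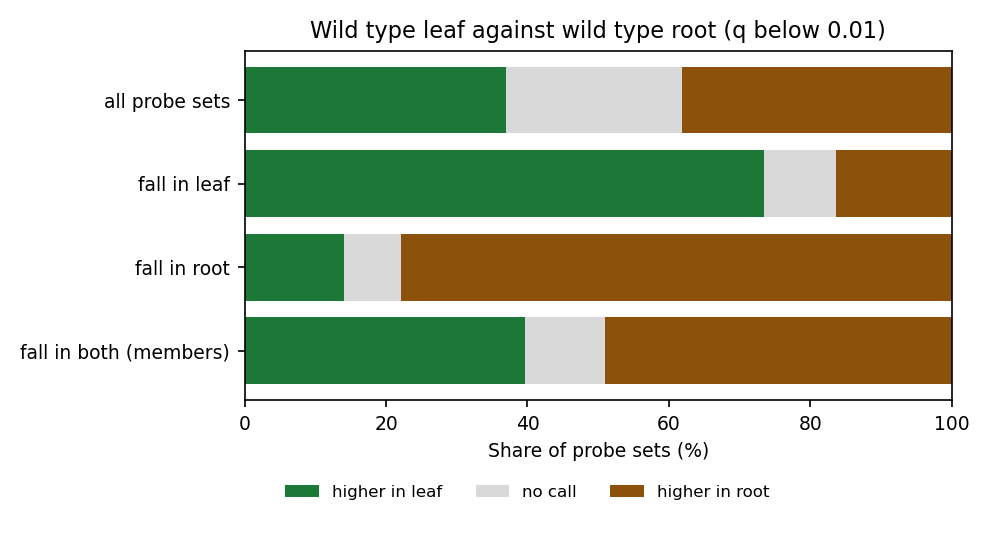
Share of probe sets (horizontal axis, %) called higher in Col-0 leaf (green), higher in Col-0 root (brown) or not called (grey) by limma at a q under 0.01, with 4 arrays an organ, for all 22266 probe sets, for those with lower values in glu1-2 leaves (2947), for those with lower values in glu1-2 roots (585) and for the 116 members. The leaf set is mostly green (73.5%), the root set mostly brown (77.9%), and the members are divided (39.7% and 49.1%).

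The members most unlike between the wild type organs were among the named ones AT2G41090, 82.7-fold higher in leaves (6.37 ± 0.14 on the log2 scale, q = 6.8e-14), and AT2G43610, 36.2-fold higher in roots (-5.18 ± 0.10, q = 3.1e-14). The Col-0 roots of AT2G41090 lay under 32, so its ratio is a lower limit. On the leaf side followed AT2G45180 (3.79 ± 0.12), the TRAF-like AT4G00780 (3.54 ± 0.10), AT4G21650 (3.19 ± 0.17) and AT4G33666 (3.02 ± 0.12). On the root side followed AT1G49310 (-3.86 ± 0.13, a lower limit in size since its Col-0 leaves averaged 28.0), AT1G69526 (-3.25 ± 0.11), AT4G33550 (-3.11 ± 0.09) and AT4G30450 (-2.62 ± 0.09), all with q values under 0.01 by limma. Unnamed members reached 6.15 and -6.41, the latter again a lower limit in size, with a Col-0 leaf mean of 18.0. At the other end, ATL8 (0.03 ± 0.08, q = 0.11), AT4G16563, an aspartyl protease (0.05 ± 0.11, q = 0.10), and AT5G51890 (-0.05 ± 0.14, q = 0.12) differed by no more than their errors between the wild type organs. bHLH39 was 2.22-fold higher in Col-0 roots (-1.15 ± 0.12, limma, q = 1.9e-07) and WRKY70 5.41-fold higher in Col-0 leaves (2.44 ± 0.14, limma, q = 7.5e-10).

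Set side by side, the members that were higher in Col-0 leaves had median differences between genotypes of -0.94 in leaves and -0.47 in roots, and the leaf difference was the larger in 37 of 46. Those higher in Col-0 roots had medians of -0.55 and -0.46, with the larger difference in leaves in 32 and in roots in 25. The 13 uncalled ones had -0.80 and -0.42, and 11 of them differed more in leaves. These values share arrays with the rule and with the organ contrast and are descriptions.

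The pathways in which iron, sugar, nitrogen, sulphur or defence signals act were covered by 10 lists of 180 genes, of which the annotation names probe sets for 22, in 8 lists. None of these 22 was a member, and the 2 members known to be in a list, bHLH39 (iron deficiency) and WRKY70 (defence), were named only from the supplementary lists. Unnamed members may include other genes of these pathways. The study gives the amino acid permease AAP4 as lower in both organs, in a table that was not used for naming. An unnamed member had the same rounded differences, -0.47 in leaves and -0.59 in roots, and whether it is AAP4 was not tested. In leaves 9 of the 22 were lower in glu1-2, 3 were higher and 10 passed in neither direction (limma, q under 0.01), beside 13.7% lower and 14.2% higher over all probe sets. In roots 1 was lower, 1 was higher and 20 passed in neither direction, beside 1.26% and 1.58%. The medians over the 22 were -0.17 in leaves and 0.01 in roots. The lists were chosen with earlier results of these data known, so nothing is read from these counts.

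The 1 list gene lower in both organs was BHLH101, an iron deficiency factor of the same Ib group as bHLH39. Its difference was -2.57 in leaves and -1.02 in roots, both lower limits in size because the glu1-2 arrays lay under 32. In leaves it went from 121 to 155 in Col-0 to between 21 and 30 in glu1-2. In roots it went from 39 to 52 in Col-0 to between 18 and 28 in glu1-2. BHLH101 met the numerical rule and was dropped by name, so these differences are descriptions and no test of them is given. It is also the gene next to GLU1. Of the other named genes of the list, the regulator PYE was lower in leaves (-0.71, q = 2e-05) and had -0.07 in roots (q = 0.53), and AT1G47400, a small iron-responsive peptide gene, was lower in leaves (-0.99, q = 2.4e-05) and had -0.52 in roots (q = 0.067, limma). AT3G13610, which makes root coumarins, had 0.25 in leaves (q = 0.14) and -0.34 in roots (q = 0.018), so it passed in neither organ. In the starch and sucrose list 2 of 8 named genes were lower in leaves and none in roots. The largest leaf difference of that list was an increase, in the sugar transporter SWEET1 (1.28, limma, q = 1.8e-06), and in roots the sugar exporter SWEET11 was higher (0.76, limma, q = 0.00039). The other list genes higher in leaves were the defensin PDF1.2 (1.77, q = 0.0001) and the clock gene GI (0.67, limma, q = 2e-05). The amino acid carrier AT1G08230 and the nitrate-responsive regulator AT1G68670 were lower in leaves (both -0.55, limma, q = 0.0006 and 0.00012) and had root values of -0.17 and 0.05.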

How the data were processed

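Affymetrix ATH1 arrays were hybridized with RNA (10 µg) of leaves (500 mg) or roots (300 mg), 4 arrays for each organ and genotype. The deposited intensity values were made by the authors with RMA in R (quantile normalization; version not given in the sources used here), as linear whole numbers with a minimum of 6. They were taken to log2 with no further normalization. Array medians lay at 97 to 102 for leaf RNA and at 106 to 110 for root RNA, and the number of arrays limits the precision. Of 22279 probe sets, 13 controls were left out.

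The members and lists were chosen with earlier results of these data known. Probe sets were named through the annotation of the platform (1 gene for 13216, several for 491), with symbols and neighbouring genes from a RefSeq gene table. The study's supplementary lists of transcription factors, shikimate and flavonoid genes, ABC transporters, cytochrome P450s and glutathione S-transferases were used for a match. Its full gene list and main tables, which hold more genes lower in both organs, were not used. Of 6 genes given as lower in both organs in the lists used, 5 matched 1 probe set each within the rounding of the whole-number intensities. Of these, 4 were members otherwise unnamed, and the other was BHLH101, which the annotation also names. The remaining gene, WRKY22, matched 3 probe sets. Probe sets that the annotation gives to another single gene were left out of this match. Roles are textbook knowledge and were grouped after the values were seen.

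All probe sets were fitted with limma 3.58.1 in R 4.3.3 for each contrast (two-sided, Storey q under 0.01), and the fit was tested on simulated data. Errors are standard errors of these fits. Replicates were described as biological. Genes named are the 10 members with the largest mean difference of both organs, the 5 largest in each organ, in excess of either organ and in either direction between wild type organs, members in a list and those at the edge of the rule. Others with a known role were added after their values were seen. For list genes with several probe sets the brightest was used. Planned groupings by annotation words and promoter motifs were not run, for want of descriptions and sequences. Alternatives covered normalization, dim probe sets, adjustment, moderation, the replicate number as a block, each array left out and the limits of the rule.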

Additional observations from a re-analysis of the deposited data

Results flagged for a closer look

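Of the 48 members named by the rule or given a role, each in 4 groups of 4 arrays, 17 of 192 groups held 1 array that stood apart from the others by Dixon's ratio of gap to range on the log2 scale (95% critical value for 4 values). Chance gives about 1 in 20 such groups, and the values are intensities.

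In Col-0 roots, replicate 3 was high for AT4G30460 (517, others 205 to 224), AT4G33666 (185, others 129 to 133) and AT4G16563 (125, others 93 to 97). Replicate 1 was high for AT3G23880 (72, others 67) and low for AT2G41090 (23, others 30 to 31), replicate 2 was low for AT1G62290 (83, others 97 to 98), and replicate 4 was low for AT1G49310 (361, others 407 to 415). In glu1-2 roots, replicate 3 was high for bHLH39 (121, others 99 to 100), and replicate 2 was high for AT1G10340 (72, others 59 to 61) and AT2G34510 (70, others 56 to 57) and low for MYR1 (31, others 38 to 39). In Col-0 leaves, replicate 2 was high for AT4G33550 (418, others 344 to 349) and low for AT3G16800 (329, others 406 to 419), and replicate 4 was low for HIS1-3 (419, others 540 to 561). In glu1-2 leaves, replicate 2 was low for AT1G26800 (73, others 105 to 113), replicate 3 was high for AT5G42830 (57, others 49 to 50), and replicate 1 was high for MYR1 (108, others 94 to 96). Beyond this, no Col-0 value of these members lay under a glu1-2 value of the same organ, as the rule required.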

How the results depend on the processing

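The number of members depended most on the rule itself. With a limit of 0.2 in place of 0.3 it was 192, with 0.5 it was 31, and where arrays were allowed to overlap it was 204. With 1 array left out it ranged from 117 to 148, of which 104 to 115 were among the 116, and 76 of the 116 were found whichever array was left out. Renewed quantile normalization gave 129 and a shift to equal medians 138, with 113 of the 116 in each. Of 48 named members, 9 missed the 0.3 limit in at least 1 such setting, among them AT4G12980 in roots (-0.26 without Col-0 replicate 1), AT5G07870 (-0.23) and AT4G16563 (-0.24) in roots without Col-0 replicate 3, and AT4G01390 in leaves (-0.29 without Col-0 replicate 1). Only AT4G30460 moved by over 1.5 times, from -0.57 to -0.25 in roots without Col-0 replicate 3. The median of the leaf minus the root difference was -0.24 to -0.20 with 1 array left out.

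Members higher in Col-0 leaves numbered 44 to 46 and those higher in Col-0 roots 56 to 58 with 1 array left out, and all probe sets 7586 to 8182 and 8114 to 8500. Of the named members, AT1G05310 (0.22, higher in Col-0 leaves) lost its organ call in some settings, while HIS1-3, ATL8, AT1G26800 and AT2G40460 gained one in some, and no value of a named member turned its direction in a called contrast.

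Over all probe sets, 280 were lower in glu1-2 roots, and this count was 707 at a q under 0.05, 450 with intensity trend and robust moderation, 103 with the replicate number as a block and 128 to 216 with 1 array left out: 128 without glu1-2 replicate 2, 167 without glu1-2 replicate 4, 176 without glu1-2 replicate 1 and 169 without Col-0 replicate 3. In leaves it was 3054, and 2588 to 2933 with 1 array left out. The list genes lower in leaves were 9, and 7 to 10 with 1 array left out. Those lower in roots were 1, and 2 at a q under 0.05, without the dimmest probe sets and with intensity trend and robust moderation, and 1 to 2 with 1 array left out. The causes were not tested. Whether the replicate numbers pair the samples was not settled. Same-numbered arrays of the 2 genotypes correlated in their deviations by -0.0322 to 0.114 for leaf arrays and by -0.042 to 0.128 for root arrays. The best correlation with another number was -0.00794 to 0.104 for leaf arrays and 0.0443 to 0.129 for root arrays. With the block, 45 members were higher in Col-0 leaves and 58 in Col-0 roots. Intensities under 32, found in at least 1 group mean of 17 members, limit what their differences can show.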
